A study of Homo sapiens with 8 samples.

Results

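The genes described here are IGLL1 and 9 other genes of the B-cell lineage, VPREB1, VPREB3, CD79A, CD79B, FCRL1, RAG1, DNTT, EBF1 and PAX5, 10 of the 34618 genes in the deposited tables. IGLL1 was chosen for its fall between the groups, the fourth lowest log2 fold change among all tested genes, and the other 9 were listed beside it for their lineage. The difference between the groups in IGLL1 is therefore given as a description with no test. CD79A and FCRL1 were already known to be higher when the list was drawn up, so theirs is treated in the same way. All 10 were found by Ensembl identifier.

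The 8 poly(A)-selected, stranded RNA sequencing libraries came from cells labelled THP1, an acute monocytic leukaemia line. The 4 RRM2_OE libraries came from cells labelled both iRxI/AxA mutant and RRM2 OE, and the 4 MOCK libraries from cells carrying an empty vector. Cells of both groups received doxycycline at 2 µg/mL. The labels name neither the promoter of the construct nor whether the cells were clones, and they do not say whether replicates were separate cultures, so a p-value reflects no more than how much these libraries vary. RRM2, the small subunit of ribonucleotide reductase and the check of the labels, had 215 to 236 CPM in RRM2_OE and 116 to 128 CPM in MOCK, where CPM is the read count scaled to TMM-adjusted library size. The 8 totals lay between 10994255 and 11686152 counts. Of 12 monocytic markers, 11 were at 1 CPM or more in both groups; the exception, CD68, averaged 0.737 CPM in RRM2_OE and 0.667 CPM in MOCK and shares its span with another annotated gene on its strand. CDKN2A, commonly described as deleted in THP1, had 48.9 to 55.5 CPM in RRM2_OE and 44.6 to 56.3 CPM in MOCK. Taken at face value, these levels go against the label. The CDKN2A span overlaps CDKN2B-AS1 and AL359922.1 on the other strand, but such an overlap would not give reads from deleted bases. Whether the label is right was not tested, and the label is kept here.

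In a B-cell precursor, the IGLL1 protein (lambda 5) joins the VpreB protein to form the surrogate light chain, which pairs with the newly made immunoglobulin heavy chain. This pre-B-cell receptor signals through the CD79A and CD79B chains. The heavy chain gene is assembled by the RAG recombinase, with bases added by terminal deoxynucleotidyl transferase (DNTT), under the transcription factors EBF1 and PAX5. Monocytes do not ordinarily make this receptor.

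The libraries held a large amount of IGLL1 RNA and next to none of its partner VPREB1. Promoter sequence is shown for this pair, since their products act together while their levels lay far apart. Both stretches are the 250 bases before the RefSeq start of the gene (build GRCh38.p14), 5′ to 3′ on the strand of the gene. IGLL1 is at chr22:23580291-23580540 on the minus strand and VPREB1 at chr22:22244536-22244785 on the plus strand. Capitals mark matches to CCCNNGGG, the core letters bound by EBF factors, which read the same on both strands.
IGLL1: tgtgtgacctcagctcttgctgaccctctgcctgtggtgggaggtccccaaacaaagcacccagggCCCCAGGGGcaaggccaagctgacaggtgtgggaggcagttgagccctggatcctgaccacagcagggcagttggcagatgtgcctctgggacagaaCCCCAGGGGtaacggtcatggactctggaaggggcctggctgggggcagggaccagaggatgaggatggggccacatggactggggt
VPREB1: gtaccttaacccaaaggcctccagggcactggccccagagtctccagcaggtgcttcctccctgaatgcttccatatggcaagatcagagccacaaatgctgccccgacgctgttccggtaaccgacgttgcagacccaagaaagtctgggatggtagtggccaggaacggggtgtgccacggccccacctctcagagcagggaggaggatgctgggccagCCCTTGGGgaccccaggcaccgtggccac
The IGLL1 stretch held 4 matches, which overlap in pairs at 2 places, starting 184 and 87 bases before the gene start. The VPREB1 stretch held 1 match, starting 29 bases before the start. Of 35116 promoters of the same length, 17.1% held at least 1. The E-box letters CANNTG, also the same on both strands, were found 5 times before IGLL1 and 3 times before VPREB1, in no case overlapping CCCNNGGG, and 61.8% of all promoters held them. These are matches of letters and not measured binding sites. Of the 10 genes, 9 had a promoter entry, and none of the other 7 with an entry held CCCNNGGG.

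IGLL1 (ENSG00000128322) lies on chromosome 22 at 23915312 to 23922495 of hg19, on the minus strand. Its level was 56.7, 54.2, 59.1 and 54.4 CPM in RRM2_OE replicates 1 to 4, and 162, 153, 162 and 146 CPM in MOCK replicates 1 to 4. Every RRM2_OE library lay far below every MOCK library, and the libraries of a group were close to each other. The means were 56.1 ± 2.31 CPM in RRM2_OE and 156 ± 7.52 CPM in MOCK (SD, n = 4 each), a log2 fold change of -1.47 (SE 0.05), or 2.78 times as much IGLL1 RNA in MOCK. Replicates 1 and 3 alone gave -1.49, and replicates 2 and 4 alone gave -1.46. From bulk RNA, fewer cells with the transcript and less transcript per cell cannot be told apart.

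Among 11895 tested genes with a mean of at least 5 CPM, the log2 fold change of IGLL1 was the second lowest. The lowest belonged to AP000345.1, a gene of the antisense class in GENCODE 29 that runs on the plus strand of chromosome 22 from 23909251 to 23915694, so that its span covers the last 383 bases of the IGLL1 span. The next after IGLL1 was MPO, the myeloperoxidase of azurophil granules, at -1.39. AP000345.1 had 14.4, 14.02, 14.9 and 16.8 CPM in RRM2_OE replicates 1 to 4, and 45.3, 50.3, 40.9 and 45.0 CPM in MOCK replicates 1 to 4, a log2 fold change of -1.59 (SE 0.08). It lay lower in every RRM2_OE library than in any MOCK library, as IGLL1 did. Its CPM was 0.252 to 0.308 of that of IGLL1 in RRM2_OE and 0.252 to 0.329 of it in MOCK, ranges that overlap. The strand setting of the authors' counting is not given in the sources used here, so reads of the 2 genes cannot be told apart with certainty, and AP000345.1 is likewise given without a test.

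**Figure D1:**
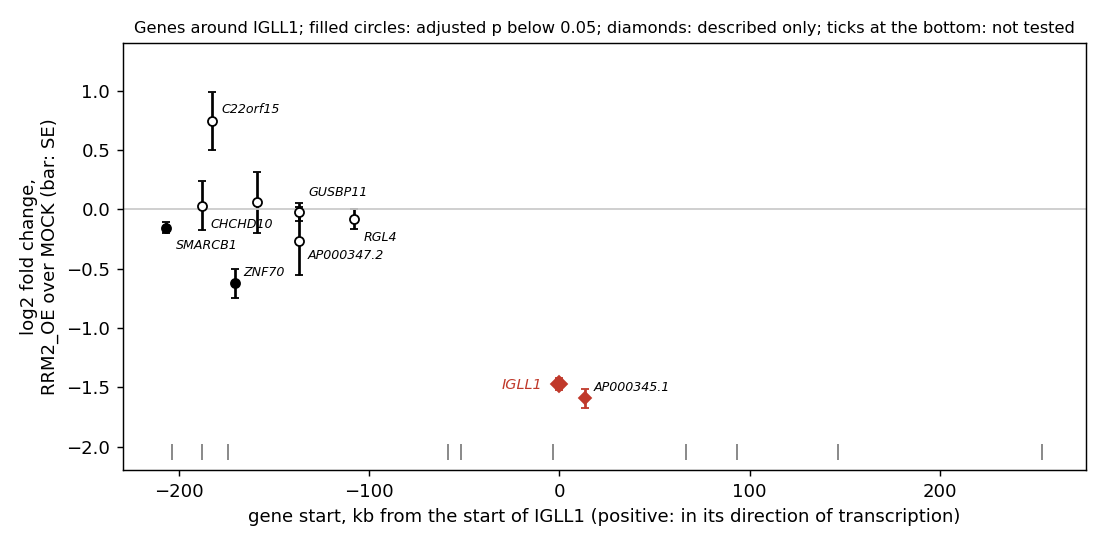
Log2 fold change (RRM2_OE over MOCK, vertical axis, bars show SE) of the 9 tested genes within 250 kb of IGLL1 and of IGLL1 itself, against the distance of each gene's start from that of IGLL1 in kb. IGLL1 at -1.47 and AP000345.1 at -1.59 (red diamonds, described only) lie far below the other 8 tested genes, which run from -0.62 to 0.75.

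The stretch of chromosome around IGLL1 held genes that were lower, and others that did not pass. Within 250 kb of its span there were 19 other genes in the tables, of which 9 could be tested, AP000345.1 included. Apart from it, ZNF70, a zinc finger gene whose start is 171 kb upstream, fell by 0.62 on the log2 scale (SE 0.12, adjusted p = 0.0058, edgeR), with 8.06 to 11.1 CPM in RRM2_OE and 12.99 to 16.1 CPM in MOCK. SMARCB1, a subunit of the SWI/SNF remodelling complex 207 kb upstream, fell by 0.15 (SE 0.04, adjusted p = 0.0349, edgeR). The SMARCB1 call was lost on leaving out any single library (edgeR adjusted p between 0.0531 and 0.0869). GUSBP11 (-0.02), RGL4 (-0.08) and CHCHD10 (0.03) did not pass, and C22orf15 gave 0.75 (SE 0.24, adjusted p = 0.0636, edgeR; adjusted p = 0.0255 with replicate number as a block). VPREB3 lies in the same window, its start 174 kb upstream of that of IGLL1, and was next to silent.

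The immunoglobulin light chain genes that resemble IGLL1 in sequence could not be seen. IGLL5, IGLC1, IGLC2, IGLC3 and IGLC7 had 0 counts in all 8 libraries, as did IGKC. How reads that match several copies were counted is not stated. Of 12 immunoglobulin and related genes found in the tables, 8 were at 0 throughout and none could be tested. The heavy chain constant gene IGHM had 5 counts in the RRM2_OE libraries together and 4 in the MOCK libraries together.

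VPREB1, which encodes the partner of lambda 5 in the surrogate light chain, had a single count in RRM2_OE replicate 3, a single count in MOCK replicate 2 and 0 in the other 6 libraries. VPREB3, a related protein of precursor B cells, had a single count in RRM2_OE replicate 1 and in MOCK replicate 3 and 0 elsewhere. Both lay below 3 counts per library, a floor of 0.257 to 0.273 CPM at these depths, so no fold change is given. Such floors cover counting error only.

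Per kilobase of exon, IGLL1 stood far above the other genes. Its mean level, in the deposited length-scaled unit RPKM, was 62.2 ± 1.88 in RRM2_OE and 171 ± 6.52 in MOCK (SD, n = 4 each). By mean RPKM it held place 580 among all 34618 genes in RRM2_OE and place 147 in MOCK. IGLL1 supplied 76.3% to 79.1% of the summed counts of the 10 genes in RRM2_OE libraries and 92.4% to 94.0% in MOCK libraries. The order of the levels in RRM2_OE was IGLL1, CD79A (3.09 RPKM), CD79B (2.03), FCRL1 (0.597), RAG1 (0.452), PAX5 (0.0707), EBF1 (0.0602), VPREB3, VPREB1 and DNTT. In MOCK it was IGLL1, CD79A (1.99 RPKM), CD79B (1.71), RAG1 (0.376), FCRL1 (0.208), PAX5 (0.0789), EBF1 (0.0467), DNTT, VPREB3 and VPREB1. In RRM2_OE, FCRL1 and RAG1 overlapped in range, as did each pair of neighbours from PAX5 downwards. In MOCK, CD79A overlapped CD79B and RAG1 overlapped FCRL1, as did each pair of neighbours from PAX5 downwards.

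**Figure D2:**
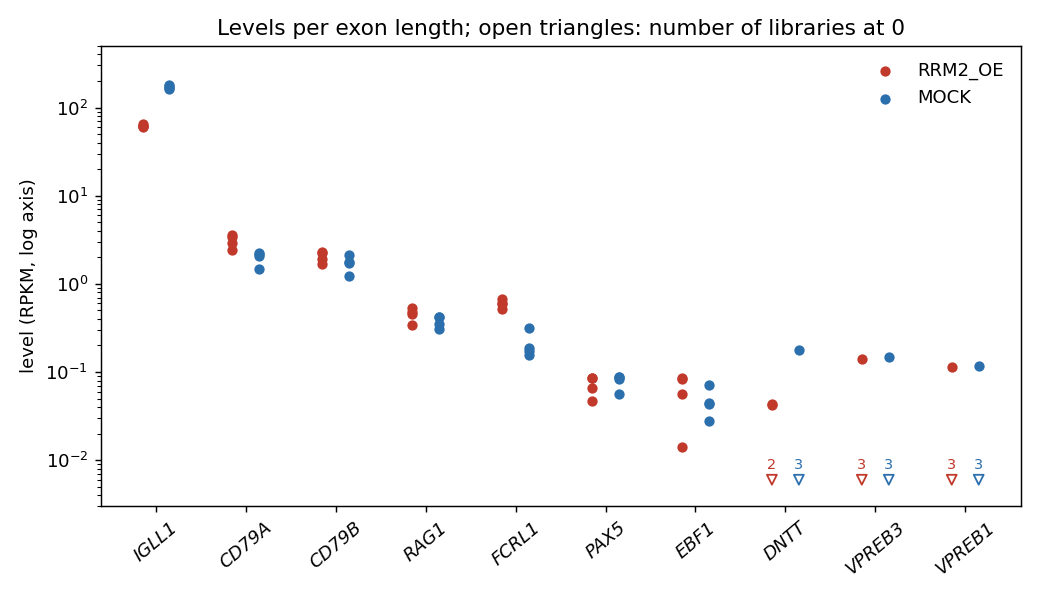
Level per exon length (RPKM, log axis) of the 10 genes in each library, RRM2_OE to the left of MOCK for every gene, ordered by the MOCK mean. Open triangles give the number of libraries at 0; IGLL1 lies at 60.8 to 64.9 RPKM in RRM2_OE and 164 to 179 RPKM in MOCK, and no other gene passes 3.55 RPKM.

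CD79A and CD79B encode the signalling chains of the B-cell receptor and its precursor. CD79A had 5.395, 4.36, 5.20 and 3.63 CPM in RRM2_OE replicates 1 to 4, and 3.43, 2.21, 3.32 and 3.05 CPM in MOCK replicates 1 to 4. The groups did not overlap, but the lowest RRM2_OE library and the highest MOCK library were close. Its log2 fold change was 0.63 (SE 0.18). Leaving out each library in turn gave 0.51 to 0.73, and the CD79A call was lost in 6 of these fits. CD79B had 3.57, 4.70, 3.99 and 4.58 CPM in RRM2_OE replicates 1 to 4, and 3.70, 2.57, 4.39 and 3.68 CPM in MOCK replicates 1 to 4. The groups overlapped, and the log2 fold change of 0.23 (SE 0.17) did not pass (edgeR adjusted p = 0.436). Replicates 1 and 3 gave -0.10 for CD79B, while replicates 2 and 4 gave 0.57.

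FCRL1, an activating Fc receptor-like surface protein of B cells, had 2.09, 2.27, 2.43 and 2.59 CPM in RRM2_OE replicates 1 to 4. In MOCK replicates 1 to 4 it had 0.704, 0.619, 1.254 and 0.718 CPM. All RRM2_OE libraries lay above all MOCK libraries, and MOCK replicate 3 stood apart from the other MOCK libraries. These values rest on 24 to 30 reads in an RRM2_OE library and 7 to 14 in a MOCK library. The log2 fold change was 1.497 (SE 0.24), or 0.40 on the log2(RPKM + 1) scale, which understates changes of genes this low. Replicates 1 and 3 gave 1.20 for FCRL1, and replicates 2 and 4 gave 1.85.

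RAG1 is the catalytic subunit of the recombinase that cuts immunoglobulin and T-cell receptor genes. It had 3.57, 4.09, 2.69 and 3.71 CPM in RRM2_OE replicates 1 to 4, and 2.82, 3.36, 2.42 and 3.23 CPM in MOCK replicates 1 to 4. The groups overlapped, and the log2 fold change of 0.25 (SE 0.17) did not pass (edgeR adjusted p = 0.403). RAG2, its partner, lies on the other strand with a span that overlaps part of the RAG1 span, and had 40 counts in the RRM2_OE libraries together and 32 in the MOCK libraries together. DNTT, which adds bases at the cut ends, had 2 counts in the RRM2_OE libraries together and 4 in the MOCK libraries together, all of the MOCK counts in replicate 4. Its span overlaps AL136181.1 on the other strand.

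EBF1 and PAX5, the factors that set and hold B-cell identity, were barely detected. EBF1 had 1, 6, 6 and 4 counts in RRM2_OE replicates 1 to 4, and 2, 5, 3 and 3 in MOCK replicates 1 to 4. PAX5 had 5, 9, 7 and 9 counts in RRM2_OE replicates 1 to 4, and 9, 6, 9 and 9 in MOCK replicates 1 to 4. The spans of both genes overlap other annotated genes on the opposite strand. Without the filter on low counts, EBF1 gave a log2 fold change of 0.33 (SE 0.58, adjusted p = 0.819, edgeR) and PAX5 one of -0.18 (SE 0.39, adjusted p = 0.853, edgeR), so no difference was detectable at this depth. In that fit 7.62% of all genes were called, 4.24% higher and 3.38% lower.

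**Figure D3:**
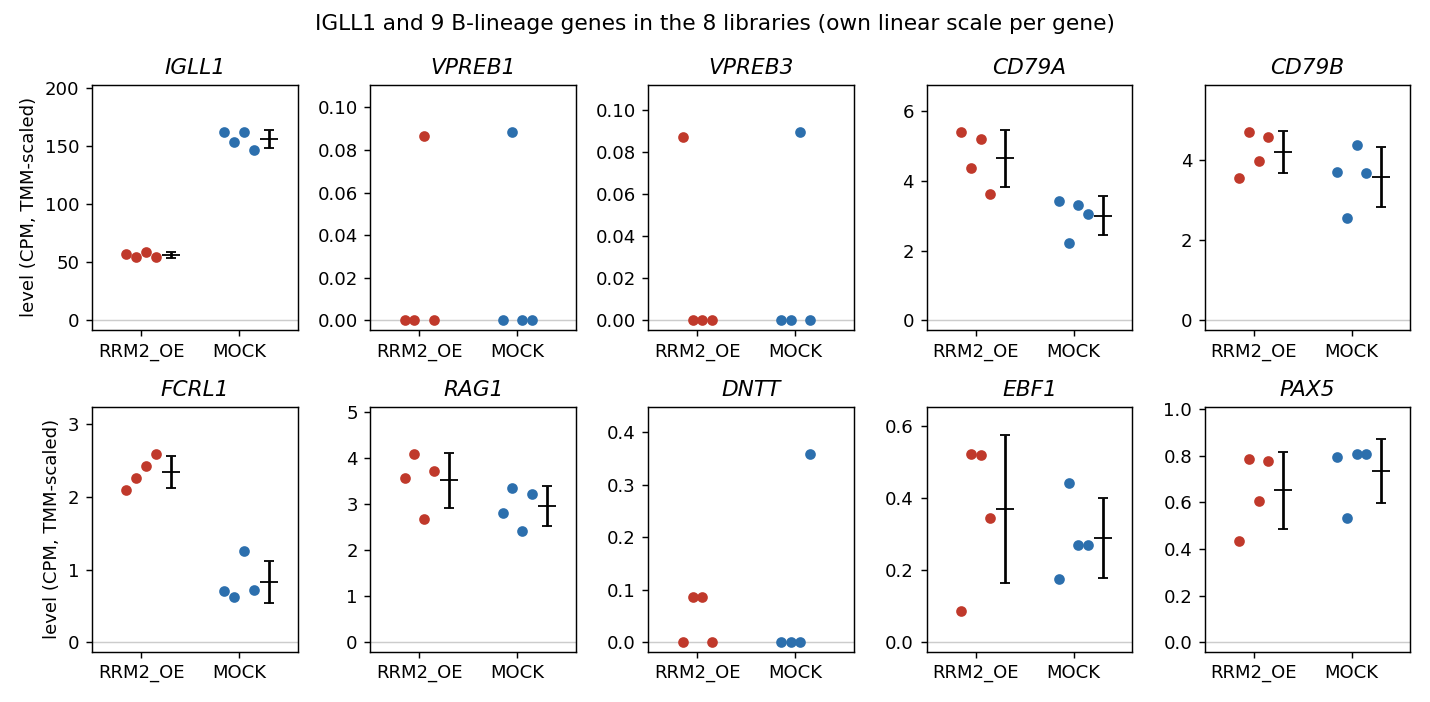
CPM of each of the 10 genes in the 4 RRM2_OE libraries (red) and the 4 MOCK libraries (blue), each gene on its own linear scale; black marks show mean and SD for genes with counts in every library. IGLL1 is lower in all RRM2_OE libraries at 54.2 to 59.1 CPM, CD79A and FCRL1 are higher without overlap, and VPREB1 and VPREB3 have counts in 1 library of each group.

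In the fit across 15286 genes, 12.8% were called at an adjusted p below 0.05 (edgeR). Of the 10 genes here 5 passed the filter on low counts, and 3 of these were called, the ones that had been chosen or known by their change, so the share carries no weight. The libraries also differed between odd- and even-numbered replicates, which each group held in equal number. In a fit with both terms, IGLL1 was higher in odd-numbered libraries by 0.11 on the log2 scale (SE 0.04, adjusted p = 0.0173, edgeR), at a mean of 109.9 CPM in odd-numbered and 102 CPM in even-numbered libraries. This is small beside the difference between the groups, and 30.4% of all tested genes were called in this comparison, 15.4% higher and 15% lower in odd-numbered libraries. CD79A gave 0.39 (SE 0.16, adjusted p = 0.0586, edgeR), RAG1 -0.32 (SE 0.17, adjusted p = 0.158), FCRL1 0.07 and CD79B 0.01, none of which passed. Whether the RRM2_OE difference itself depended on odd or even number was tested as an interaction. None of the 5 tested genes passed (0% of all genes; edgeR adjusted p = 0.9997 for each), and at an unadjusted p below 0.05 there was 1 of the 5, CD79B, and 491 of all genes.

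The genes most like IGLL1 over the 8 libraries were RREB1, a zinc finger transcription factor (Pearson's r = 0.995 in log2 CPM), TSPOAP1 (0.994), AC104232.1 (0.994), the transcription factor MYC (0.993) and AZU1, the azurophil granule protein azurocidin (0.993). The 8 libraries include both groups, so these values carry the difference between them, and 8 genes in all exceeded 0.99. After subtracting each group mean the most alike were ARHGAP27 (0.995), AC020594.1 (0.99), INTS3 (0.988), PATL1 (0.987) and TEX261 (0.986), over 8 libraries that share the odd/even pattern. On that measure CD79A gave 0.59, FCRL1 0.35, CD79B 0.04 and RAG1 -0.85. The genes named as most alike by either measure were the highest in a search over all tested genes. Their values are high by that choice and were not tested.

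Other genes of B-cell development were taken from 7 lists made by role, 108 genes without the 10 above, of which 105 were found and 77 could be tested. In RRM2_OE 20 were higher and 7 lower, where 7.41% of all tested genes were higher and 5.42% lower. Their median log2 fold change was 0.04, against -0.00 over all tested genes. With replicate number as a block 22 were higher and 16 lower, where 29.1% of all genes were called, 15.1% higher and 14% lower. Without RRM2_OE replicate 1, RRM2_OE replicate 4 or MOCK replicate 2, only 4 were lower. Many of these genes also work in myeloid cells.

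Among 22 tested B-lineage transcription factors 5 rose and 2 fell, where 7.41% of all tested genes were higher and 5.42% lower. ID3, an inhibitor of E proteins such as TCF3, rose by 1.94 on the log2 scale (SE 0.23, adjusted p = 1.92e-04, edgeR). It had 4.44, 3.48, 3.29 and 3.28 CPM in RRM2_OE replicates 1 to 4, and 0.704, 1.06, 0.627 and 1.35 CPM in MOCK replicates 1 to 4, without overlap. ID2, a second inhibitor of this family, averaged 148 ± 8.58 CPM in RRM2_OE and 115 ± 5.27 CPM in MOCK (SD, n = 4 each) and rose by 0.37. SOX4, a factor needed for early B-cell development in mouse, fell by 0.50 (SE 0.05, adjusted p = 4.76e-05, edgeR), with 54.7, 52.3, 54.8 and 57.3 CPM in RRM2_OE replicates 1 to 4, and 78.9, 74.0, 78.7 and 79.1 CPM in MOCK replicates 1 to 4. BCL11A, also needed for mouse B cells and named here after its value was seen, fell by 0.50. The Ikaros factor IKZF1 (-0.07), TCF3 (-0.10) and SPI1 (0.01) did not pass, but TCF3 was lower with replicate number as a block (edgeR adjusted p = 0.0425). ID2 overlaps ID2-AS1, and BCL11A overlaps AC009970.1, each on the other strand.

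The list of receptor signalling genes held many that monocytes share, which were abundant and moved little. It also held lower genes. BLNK averaged 5.38 CPM in RRM2_OE and 4.94 CPM in MOCK, and BANK1 8.48 CPM in RRM2_OE and 10.7 CPM in MOCK. BLK, with 2 counts in the RRM2_OE libraries together and 1 in the MOCK libraries together, was too low to test. Of 19 genes of this list tested, 3 rose and 1 fell, where 7.41% of all tested genes were higher and 5.42% lower. The adaptor DAPP1 rose by 0.26, the kinase LYN by 0.16 and the adaptor PIK3AP1 by 0.20 on the log2 scale. The LYN call was lost without RRM2_OE replicate 2, 3 or 4 or without MOCK replicate 3 or 4 (edgeR adjusted p up to 0.0779), and the PIK3AP1 call without RRM2_OE replicate 2 or 4 or without MOCK replicate 1, 3 or 4 (edgeR adjusted p up to 0.114). The kinase SYK averaged 143 CPM in RRM2_OE and 148 CPM in MOCK, and BTK 142 CPM in RRM2_OE and 149 CPM in MOCK, neither of which passed. Of 11 tested recombination and end-joining genes 0 rose and 1 fell, PRKDC, the DNA-dependent protein kinase, by 0.16. It kept no call without RRM2_OE replicate 1, 3 or 4 or without MOCK replicate 2, 3 or 4 (edgeR adjusted p up to 0.0846). With the replicate block 6 of the 11 were lower, where that fit called 14% of all tested genes lower.

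Surface proteins of B cells and their precursors changed in both directions. Of 16 tested, 8 rose and 2 fell, with a median of 0.21, where 7.41% of all tested genes were higher and 5.42% lower. The co-stimulatory receptor CD40 rose by 0.84 (SE 0.09, adjusted p = 9.84e-05, edgeR), with 23.6, 22.4, 23.2 and 21.5 CPM in RRM2_OE replicates 1 to 4, and 11.5, 14.7, 11.3 and 13.3 CPM in MOCK replicates 1 to 4. The low-affinity IgE receptor FCER2 rose by 0.61. Of genes shared with other progenitors, named after their values were seen, MME (CD10) rose by 0.33 and CD34 by 0.48, and FLT3 fell by 0.30.

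In the Fc receptor-like family, FCRLA, an intracellular member of B cells, rose by 0.76 (SE 0.17, adjusted p = 0.0109, edgeR). It had 3.31 to 3.64 CPM in RRM2_OE and 1.59 to 2.47 CPM in MOCK. The other member tested did not pass, and 5 of the 7 listed were too low to test. Of 7 tested plasma cell genes 3 rose and 1 fell, where 7.41% of all tested genes were higher and 5.42% lower. SDC1 (CD138) rose by 1.37, SLAMF7 by 0.64 and PRDM1, the factor that drives plasma cell formation, by 0.59. The SDC1 value rests on few reads, 128 counts in the RRM2_OE libraries together and 48 in the MOCK libraries together. PRDM1 shares part of its span with AL022067.1 on the same strand. MZB1, a chaperone of immunoglobulin secretion named after its value was seen, fell by 0.49; its call was lost without RRM2_OE replicate 1, 2 or 4 or without MOCK replicate 1 or 2 (edgeR adjusted p up to 0.0604).

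**Figure D4:**
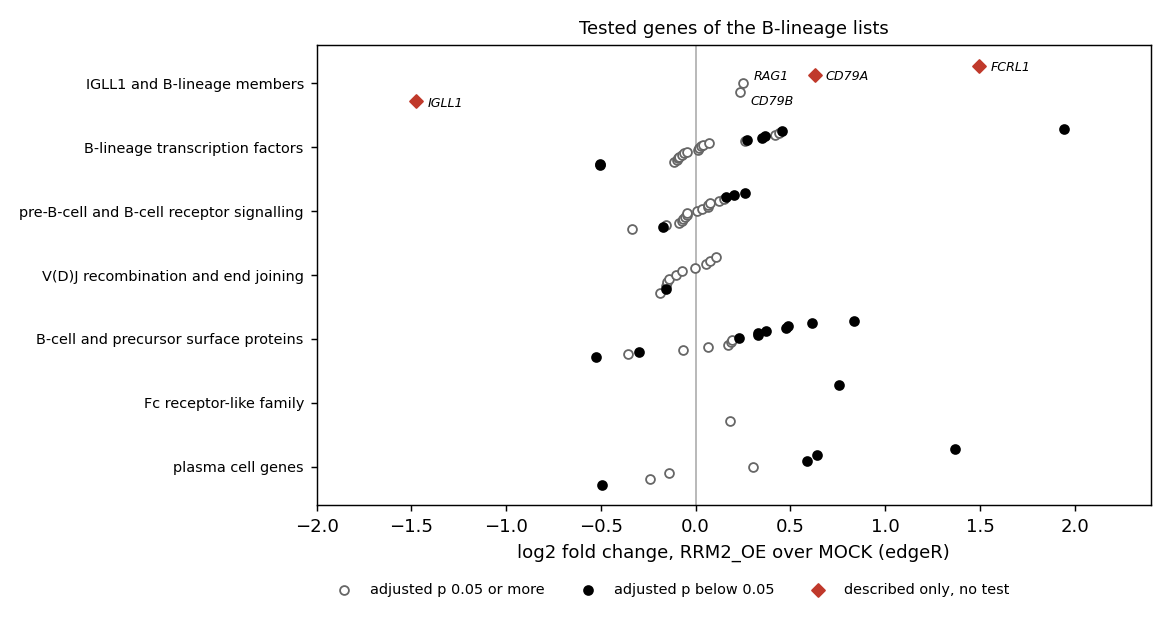
Log2 fold change (RRM2_OE over MOCK, horizontal axis) of each tested gene by list; filled circles have an adjusted p below 0.05 and red diamonds are IGLL1, CD79A and FCRL1, given without a test. IGLL1 at -1.47 lies lower than any gene of the other lists, and ID3 at 1.94 lies highest.

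Markers of other cell types were read beside these genes. Of 10 mature B-cell markers, 4 were at 1 CPM or more in both groups, among them CD22, FCER2 and BANK1. Among defining markers, MS4A1 (CD20) had 4 counts in the RRM2_OE libraries together and 0 in the MOCK libraries, and IGKC had 0 in both groups. The summed level of this list was 27.7 to 31.5 CPM in RRM2_OE and 26.1 to 27.6 CPM in MOCK, and of the 4 tested FCER2 alone was called, higher. With replicate number as a block BANK1 was also called, lower (log2 fold change -0.34, edgeR adjusted p = 0.0141). Of 14 T and NK markers 7 were at 1 CPM or more in both groups, with a sum of 88.1 to 106.5 CPM in RRM2_OE and 63.8 to 72.0 CPM in MOCK, and 4 of the 7 tested were higher and 0 lower. NKG7 averaged 39.4 CPM in RRM2_OE and 25.6 CPM in MOCK, and CD3D averaged 25.6 CPM in RRM2_OE and 17.5 CPM in MOCK. CD3E averaged 0.521 CPM in RRM2_OE and 0.333 CPM in MOCK, and LCK had 11 counts in the RRM2_OE libraries together and 0 in the MOCK libraries. Of 7 plasmacytoid dendritic cell markers only IL3RA, which myeloid cells also make, reached 1 CPM, and the sum was 101.7 to 126 CPM in RRM2_OE and 99.4 to 121.5 CPM in MOCK. The monocytic list summed to 3064 to 3194 CPM in RRM2_OE and 2465 to 2625 CPM in MOCK, and 6 of its 11 tested genes were higher and 0 lower. Over all tested genes 7.41% were higher and 5.42% lower. The marker lists were chosen with earlier results of these data known.

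The 5 granule genes of early myeloid progenitors, MPO, AZU1, ELANE, PRTN3 and CTSG, were lower in RRM2_OE, as IGLL1 was. Their sum was 2271 to 2632 CPM in RRM2_OE and 4837 to 5664 CPM in MOCK. All 5 were called lower (edgeR), where 5.42% of all tested genes were lower. This list too was chosen with earlier results known. The part of these marker shifts in the IGLL1, CD79A and FCRL1 differences was not tested.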

How the data were processed

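The authors deposited whole-number read counts per Ensembl gene and RPKM values for the same 8 libraries. Library preparation used 200 ng of total RNA, per the labels' protocols. Build hg19 (GRCh37) and the tools HTSeq 0.11.2, TopHat2 and bcl2fastq 2.18.0.12 are listed without roles, per the submitters' processing notes. Annotation and strand setting: not given in the sources used here. Deposited RPKM values were recomputed from counts, column totals and the deposited exon lengths (an "other" column, in base pairs) to within 4.7e-06. Symbols came from a table of current names, or from GENCODE 29. Sequences are from RefSeq.

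The test was edgeR's robust quasi-likelihood F test (edgeR 4.0.16, R 4.3.3) of RRM2_OE against MOCK on the 15286 genes that filterByExpr retained, with TMM scaling, Benjamini-Hochberg adjustment over all genes tested and a threshold of 0.05. SE was obtained by dividing the log2 fold change by the root of F. The fits were tested on simulated data. Levels are CPM on TMM-scaled library sizes; counting error limits genes near 3 counts per library. No column of another sample was used.

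The genes, lists and tests were chosen with earlier results of these data known. The text names, besides the 10 genes, up to 3 genes per list with the smallest adjusted p, the 5 genes most like IGLL1 by each measure and the genes within 250 kb of IGLL1. CD24, IGLL3P and VPREB2 were not matched and not analysed here. Some genes that the rule names are not reported here.

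Deviations from the group means correlated between same-numbered libraries at 0.251, 0.232, 0.225 and 0.228, so an alternative fit took replicate number as a block. Libraries of like parity but other number correlated as well (0.228 to 0.294), so these values do not show pairing by number. Within a group, the chi-square per degree of freedom was 1.47 to 2.9 between libraries of like parity and 6.18 to 12.0 between those of unlike parity (20 or more counts per gene and pair), above sampling noise, so none were merged. Alternatives were DESeq2 1.42.0, limma 3.58.1 on log2 RPKM with pseudocounts of 1 and 0.1, other scalings and filters, the replicate block, an odd/even term, each parity alone, and leaving out each library.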

Additional observations from a re-analysis of the deposited data

Results flagged for a closer look

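In 10 of 56 groups of 4 libraries checked, over 28 genes named in the report, 1 library stood apart from the other 3 by Dixon's criterion; chance gives about 1 in 20. In 5 of the 10 the other 3 libraries were at 0. VPREB1 had 0.0867 CPM in RRM2_OE replicate 3 and 0.0885 CPM in MOCK replicate 2, VPREB3 had 0.0870 CPM in RRM2_OE replicate 1 and 0.0896 CPM in MOCK replicate 3, and DNTT had 0.359 CPM in MOCK replicate 4. FCRL1 was high in MOCK replicate 3 at 1.254 CPM, against 0.619 to 0.718 CPM in the other MOCK libraries. PAX5 was low in MOCK replicate 2 at 0.531 CPM, against 0.792 to 0.808 CPM. SOX4 was also low there at 73.95 CPM, against 78.7 to 79.1 CPM. PRKDC was high in RRM2_OE replicate 2 at 323.7 CPM, against 307 to 308 CPM. SLAMF7 was low in RRM2_OE replicate 3 at 65.4 CPM, against 66.7 to 66.9 CPM.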

How the results depend on the processing

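IGLL1 stayed lower under all 19 alternatives, at -1.50 to -1.45 on the log2 scale, and gave the same range on leaving out each library. Of 760 values of 40 other genes, 671 kept direction and call, 88 lost the call and 1 turned: CD79B was -0.10 in replicates 1 and 3 alone. The number of the 10 genes called was 2 or 3 throughout. These were always among IGLL1, CD79A and FCRL1, chosen or known by their change, so this number carries no weight. Counts of B-lineage genes that were lower (7) became 16 with the replicate block, 17 with the odd/even term, 4 with limma at either pseudocount and 4 to 7 on leaving out a library; those higher (20) were 15 to 18 without a library. Over all genes, 1133 higher and 829 lower became 2303 and 2143 with the replicate block and 2427 and 2277 with the odd/even term. Those lower were 1330 in replicates 1 and 3, 463 and 453 by limma with pseudocounts of 1 and 0.1, and 542 to 607 without a library, where 808 to 937 were higher. Rises made up 57.7% of calls, and 68.7% and 68.8% by limma. Library sizes alone gave 65.2%. With the replicate block CD79B and RAG1, the tested members not chosen or known by their change, still did not pass. Among the listed genes and neighbours named in the report it changed those of TCF3, BANK1 and C22orf15 and no other. Depth limits VPREB1, VPREB3, DNTT, EBF1 and PAX5, all under 10 counts per library.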
